A study of Mus musculus with 6 samples.

Results

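The transcripts described here are those of 67 ribosome biogenesis and nucleolar factors of the 55376 genes in the count tables. They were taken by gene name: names beginning with Utp, Nop, Nol or Rrp followed by a digit, Noc2l to Noc4l, 7 Wdr genes and 21 further named factors, without pseudogenes.

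Ribosome biogenesis begins in the nucleolus, where a long ribosomal RNA precursor is transcribed, chemically modified and cut while ribosomal proteins assemble onto it. The small-subunit processome, built from modules such as UtpA, UtpB and Imp3-Imp4, folds and cleaves the part that becomes the 40S subunit, whereas other factors, among them the PeBoW complex, mature the 60S subunit. Small nucleolar ribonucleoproteins (snoRNPs) guide the modifications: the box C/D class places methyl groups and the box H/ACA class makes pseudouridine. CPEB1 is an RNA-binding protein that recognises cytoplasmic polyadenylation elements (CPEs) in 3′ UTRs and controls poly(A) tail length and translation. Satellite cells (SCs) are the stem cells of skeletal muscle, and their exit from quiescence is accompanied by growth and increased protein synthesis.

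Role lists divided the 67 genes into 6 UtpA genes, 4 UtpB genes, Imp3 and Imp4, 19 other small-subunit factors, 3 box C/D and 4 box H/ACA core proteins, 3 PeBoW genes, 19 other 60S factors, and the abundant nucleolar proteins Ncl and Npm1. The name rule also took 5 genes to which these lists give no role (Nol3, Nol4, Nol4l, Nol12 and Rrp8). Nol3 is known as an inhibitor of apoptosis. A place among these 5 does not mean that a gene acts outside ribosome biogenesis. Leaving those 5 out kept 30 of the 31 calls higher in the CPEB1 immunoprecipitate than in IgG. The call left out was that of Rrp8 (log2 fold change 0.59, edgeR adjusted p = 0.0129).

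RNA immunoprecipitation sequencing (RIP-seq) was performed on SCs freshly sorted from C57BL/6 mice aged 3 months. Of the 6 libraries, 2 held RNA from an anti-CPEB1 immunoprecipitation (CPEB1 IP), 2 held RNA from a control IgG immunoprecipitation and 2 held input RNA. No library came from cells lacking CPEB1, so that the IgG precipitate was the control for RNA carried without the antibody. Precipitates of an antibody hold RNA bound directly, RNA carried by partner proteins and RNA that sticks to the beads, and these cannot be told apart. Nor can more RNA of a gene in each cell be told apart from more of the cells that express it. The study describes 2 independent experiments, but the labels do not say which animals entered each library, and the p-values measure the spread between these libraries.

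Reads on genes summed to 3270067 and 3314547 in input, 1284716 and 1359052 in IgG, and 2564323 and 4941653 in CPEB1 IP, so IgG was the shallowest group. FPKM are fragments scaled to exon length and to a library total, here not given with the deposited values. That total was inferred for each library from the counts, exon lengths and FPKM, as a median over genes with at least 20 counts. As a share of the inferred totals, the reads on genes were 71.1% and 79.8% in input, 39.5% and 39.1% in IgG and 69.9% and 69.5% in CPEB1 IP. The IgG libraries therefore stood apart, with most of that total not counted on genes. All 8 satellite cell markers were detected in every library. They summed to 9489.1 and 10129.9 CPM in input, 8003.3 and 7978.4 in IgG and 9854.8 and 8495.1 in CPEB1 IP. Single markers differed by FPKM. Pax7 was at 39.76 and 46.04 in input, 6.41 and 5.45 in IgG and 10.14 and 10.75 in CPEB1 IP. Cdh15 was at 149.5 and 142.4 in input, 9.94 and 8.93 in IgG and 24.99 and 29.94 in CPEB1 IP. Calcr, Itga7 and Vcam1 were also lower in CPEB1 IP than in input, Chrdl2 was higher, and Myf5 and Sdc4 overlapped. In IgG each of the 8 was below input by FPKM. The 15 markers of other muscle-resident cells summed to 454 and 509 CPM in input, 645 and 600 in IgG and 683 and 716 in CPEB1 IP, with 0 to 2 of the 15 at 0 in a library. Among them, Rgs5 was lower in CPEB1 IP (23.2 and 21.04 FPKM) and in IgG (11.31 and 10.94) than in input (38.15 and 56.75). In contrast, Dcn, Ly6a and Acta1 were higher in CPEB1 IP than in input. CPM are counts scaled to a common library size, so they compare libraries but not genes.

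To see whether these transcripts carry the sequence that CPEB1 recognises, annotated 3′ UTRs were searched for the 9 CPE motifs of the study's list. They are TTTTAT and TTTTAAT, called canonical here, the variants TTTTACT and TTTTCAT, and the longer TTTTAAAT, TTTTAACT, TTTTAAGT, TTTTAATT and TTTTAAAGT. Only the transcript strand was searched, and each TTTTAATT also holds a TTTTAAT. Canonical motifs also occur in other members described below, such as Nop58, Wdr12, Gar1 and Utp14b, which are not shown. The windows below cover some of the members that the study names or that are described at length. Each comes from the transcript of the gene with the longest annotated 3′ UTR. It shows the canonical motif nearest to the annotated end of that transcript, with the motif in capitals. All lie in 3′ UTRs of protein-coding transcripts (GENCODE M21, mm10) and read 5′ to 3′ on the strand of the gene.
Imp4, chr1:34448233-34448256, plus strand: cgatctaaTTTTAATtcatcttta
Wdr3, chr3:100138414-100138437, minus strand: ataatattTTTTAATtgtgtattt
Utp15, chr13:98247054-98247077, minus strand: tgggaagtaTTTTATactttacta
Wdr43, chr17:71658656-71658679, plus strand: ctcaagattTTTTATgtatgtata
Dkc1, chrX:75109739-75109762, plus strand: agagaatatTTTTATtaaaagtct
Ftsj3, chr11:106249238-106249261, minus strand: gatcaaatcTTTTATgaagccttc
Pes1, chr11:3979179-3979202, plus strand: gtggtgagcTTTTATtattaaatg
Ncl, chr1:86346060-86346083, minus strand: ggtaattatTTTTATggtgcttgg
Heatr1, chr13:12438870-12438893, plus strand: agtaaaccggatggtatTTTTATa
Other transcripts of a gene may end elsewhere, and which of them the cells use was not examined. The distance from motif to annotated end differed widely among the transcripts shown. It was 7 bases in Heatr1, 30 in Dkc1, 111 in Ftsj3 and 1356 in Ncl.

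The 67 genes took a larger share of the reads on genes in CPEB1 IP than in either other group. Their counts made up 0.823% and 0.773% of reads on genes in input, 1.03% and 1.05% in IgG, and 1.27% and 1.33% in CPEB1 IP. The groups did not overlap. The order of input, IgG and CPEB1 IP was also that of the summed markers of other muscle-resident cells, whose part in the result was not tested. Not every marker in that sum followed the order, since Rgs5 was highest in input by FPKM. The median member stood at 77.9 and 78.7 CPM in input, 108 and 100.4 CPM in IgG and 129.5 and 127 CPM in CPEB1 IP, after TMM scaling (trimmed mean of M-values) over all 6 libraries.

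Against input, most members had a higher relative read level in CPEB1 IP, which is not an amount of RNA. In edgeR's quasi-likelihood test, with p-values adjusted by Benjamini-Hochberg over all 12171 genes tested, 51 of the 67 were higher in CPEB1 IP at an adjusted p under 0.05, 1 was lower and 15 did not pass. Across all genes tested, 16.3% were higher and 16.7% lower. The median log2 fold change was 0.74 for the members and -0.03 for all genes. Among genes with a mean input FPKM of at least 5, 48 of 59 members were higher, beside 21.4% of all such genes.

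Against IgG, fewer members passed. CPEB1 IP was higher for 31 of the 67 members and lower for 2, Heatr1 and Gar1, while 34 did not pass (edgeR, adjusted p under 0.05). Of all 12124 genes tested, 14.7% were higher and 18.7% lower. The median log2 fold change was 0.35 for the members and -0.01 for all genes. Among genes with a mean input FPKM of at least 5, the share higher in CPEB1 IP was 28.1%, and of the members at that level 31 of 59 were higher. DESeq2 was fitted to all 42045 genes with a count and called 49 members higher and 0 lower (0 also at an unadjusted p under 0.05). Of all genes fitted, 6.23% were called higher and 2.34% lower, with a median of -1.07. Its default filter can leave genes with low counts without an adjusted p. Such genes stay in the total as not called, so these shares are not set against the members on equal terms.

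Many of these genes also had a higher relative read level in the IgG precipitate than in input. It was higher for 29 members, lower for 5 and 33 did not pass, with a median log2 fold change of 0.43 (0.03 for all 12980 genes tested). Of all genes, 21.4% were higher in IgG and 19.4% lower, and among genes with a mean input FPKM of at least 5 the share higher was 10.8%, beside 27 of 59 members. DESeq2 called 9 members higher and 4 lower here. Of all 40052 genes fitted, again with those of low counts in the total, 2.97% were called higher and 4.0% lower, with a median of 2.13. The 3 comparisons share libraries, so their counts are not independent of each other. The plot of cumulative distributions sets the members beside all genes in each comparison.

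**Figure D1:**
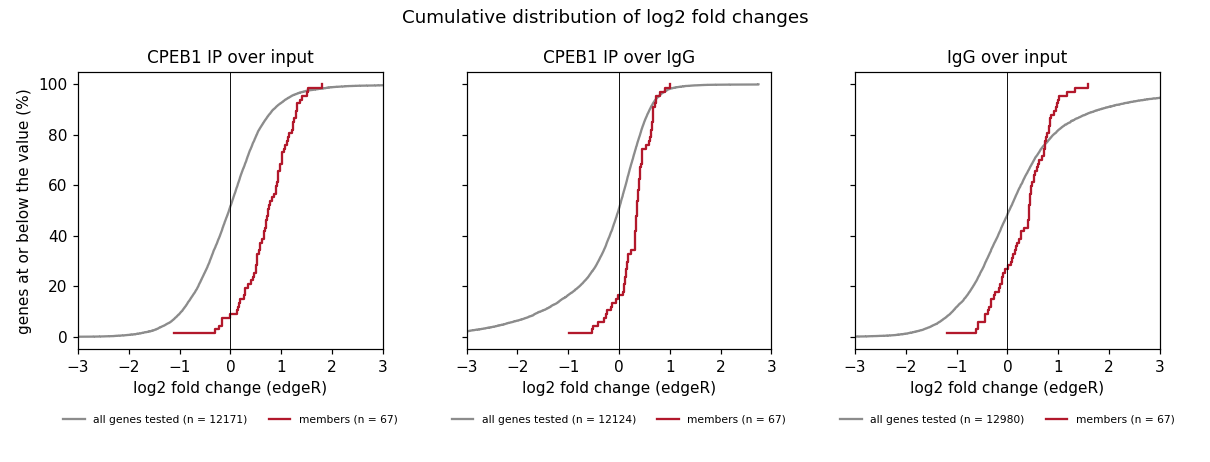
Cumulative share of genes (percent, vertical axis) at or below each edgeR log2 fold change (horizontal axis) for the 67 members (red) and all genes tested (grey) in 3 comparisons. The members' curve lies to the right of all genes at its middle in each panel, with medians of 0.74, 0.35 and 0.43 against -0.03, -0.01 and 0.03 under TMM scaling. In IgG over input the members' median turns negative when libraries are scaled to the FPKM totals.

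These counts rest on how libraries are scaled, and for IgG over input so does their direction. With library sizes set to the totals behind the deposited FPKM, CPEB1 IP was higher than IgG for 63 members and lower for 0 (0 also at an unadjusted p under 0.05), but the median of all genes then moved to 0.84 and 62.7% of all genes were called higher and 4.53% lower. On that scale CPEB1 IP was higher than input for 39 members and lower for 1, with a median of -0.20 over all genes, of which 10.1% were higher and 22.9% lower. IgG over input reversed, with 1 member higher, 36 lower and a median of -0.93 over all genes, of which 4.59% were higher and 59.7% lower. Relative to the median of all genes, the members' median stood 0.32 above it for IP over IgG, 0.77 above it for IP over input and 0.49 above it for IgG over input.

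**Figure D2:**
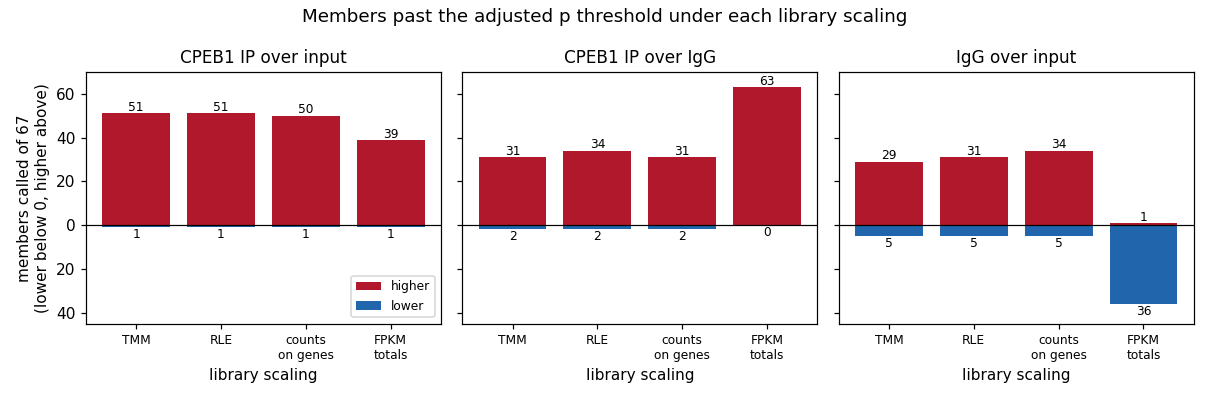
Number of the 67 members called higher (red, above 0) or lower (blue, below 0) at an edgeR adjusted p under 0.05, under 4 library scalings (TMM, relative log expression, counts on genes, totals behind the FPKM). Calls for IP over input lay between 39 and 51 higher, whereas those for IgG over input turned from 29 higher and 5 lower under TMM to 1 higher and 36 lower under the FPKM totals.

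Among the small-subunit modules, the UtpA genes, whose products bind the 5′ end of the precursor and are linked to its transcription, divided. CPEB1 IP was higher than input for 4 of 6 and higher than IgG for 3 of 6, with Heatr1 lower than IgG. Utp15 was at 70.6 and 82.4 CPM in input, 125 and 129 in IgG and 189 and 168 in CPEB1 IP. The 3 groups did not overlap. Its log2 fold change was 1.24 ± 0.15 (SE) over input (edgeR adjusted p = 4.5e-05) and 0.42 ± 0.12 over IgG (adjusted p = 0.00998), and leaving out CPEB1 IP replicate 1 ended the second call (adjusted p = 0.0931).

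Wdr43, another UtpA subunit, showed the same order at a higher level. It was at 284 and 266 CPM in input, 376 and 386 in IgG and 539 and 502 in CPEB1 IP. CPEB1 IP was above input by a log2 fold change of 0.94 ± 0.13 (edgeR adjusted p = 0.000118) and above IgG by 0.38 ± 0.09 (adjusted p = 0.00355). Nol11, a metazoan UtpA subunit, had a different pattern: its 102 and 111 CPM in CPEB1 IP were close to the 96.9 and 101 CPM of input, while IgG was at 64.3 and 64.5 CPM. Its difference over IgG of 0.67 ± 0.14 (edgeR adjusted p = 0.00126) thus came with IgG below input by 0.62 ± 0.20 (log2 fold change -0.62, adjusted p = 0.0103), a call lost without either IgG library and under DESeq2 (adjusted p up to 0.102 over the alternatives).

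Heatr1, the largest UtpA protein, was the reverse of Nol11. It was at 123 and 88.3 CPM in input, 203 and 227 in IgG and 147 and 163 in CPEB1 IP. The gene was thus highest in IgG, with a log2 fold change of -0.53 ± 0.11 for IP over IgG (edgeR adjusted p = 0.00101) and 1.02 ± 0.18 for IgG over input (adjusted p = 1.19e-05, lost under the FPKM totals at 0.511). Its longest annotated 3′ UTR holds 2 canonical CPE motifs, 1 of them shown above. The lower call in CPEB1 IP was lost under DESeq2 and without the filter on low counts, and its sign turned under the FPKM totals (0.28). Over input, Heatr1 was called in CPEB1 IP (0.57 ± 0.17, edgeR adjusted p = 0.0198), but not without CPEB1 IP replicate 2 or under the FPKM totals (adjusted p up to 0.201).

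Of the 4 UtpB genes among the members, 2 were higher in CPEB1 IP than input and 1 was higher than IgG. Pwp2 and Tbl3, UtpB genes outside the name rule, were also higher than IgG, by 0.48 ± 0.12 and 0.34 ± 0.11 (edgeR adjusted p = 0.00371 and 0.0190). Over input their log2 fold changes were 1.09 ± 0.15 and 0.60 ± 0.15 (edgeR adjusted p = 0.000176 and 0.00764). The member higher than IgG was Wdr3, which was at 55.3 and 42.4 CPM in input, 57.5 and 53.1 in IgG and 94.3 and 85.1 in CPEB1 IP. Input and IgG overlapped, and CPEB1 IP lay above both. Its log2 fold change was 0.89 ± 0.17 over input (edgeR adjusted p = 0.00173) and 0.62 ± 0.16 over IgG (adjusted p = 0.00402), the latter ended by leaving out CPEB1 IP replicate 1 (adjusted p = 0.0568). For Wdr3, 16.2% of exon bases overlap genes on the other strand (Gdap2 and Spag17), and the strand setting of the counting is not given in the sources used here.

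Imp3 and Imp4, partners of Mpp10 that help pair the U3 snoRNA with the precursor, were both higher in both precipitates than in input, but the sign of Imp3 in IgG over input turned under the FPKM totals (-0.055). That call of Imp3 was also lost under DESeq2, without the filter on low counts and without IgG replicate 2 (edgeR adjusted p = 0.146 in the last), and that of Imp4 under the FPKM totals. Imp4 was at 109 and 96.0 CPM in input, 188 and 208 in IgG and 263 and 260.1 in CPEB1 IP. Its log2 fold change was 1.38 ± 0.14 over input (edgeR adjusted p = 1.45e-05) and 0.33 ± 0.10 over IgG (adjusted p = 0.0166), and the call over IgG was lost without IgG replicate 1 or CPEB1 IP replicate 2 (adjusted p up to 0.0665). Imp3 (chr9:56937475-56938398), which holds none of the 9 motifs, was at 25.1 and 30.0 CPM in input, 44.8 and 53.1 in IgG and 57.8 and 74.7 in CPEB1 IP. It passed over input (1.31 ± 0.20, edgeR adjusted p = 0.000279) but not over IgG (0.39 ± 0.18, adjusted p = 0.103), where it passed under DESeq2, under the FPKM totals and without the filter. The CPEB1 IP libraries were nonetheless both above the IgG libraries.

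The other 19 small-subunit factors gave 14 members higher and 1 lower against input, and 8 higher and 0 lower against IgG (edgeR, with 1 lower at an unadjusted p under 0.05 and 0 lower by DESeq2). The largest member fold change over IgG belonged to Utp3 (chr5:88554462-88556090), the mouse Sas10 homologue. Utp3 was at 71.9 and 73.4 CPM in input, 59.0 and 53.8 in IgG and 119.7 and 118 in CPEB1 IP, a log2 fold change of 1.01 ± 0.14 over IgG (edgeR adjusted p = 3.67e-05) and 0.74 ± 0.14 over input (adjusted p = 0.00167). Its annotated 3′ UTR spans 67 bases and holds none of the motifs. Bms1, a GTPase of the processome, was at 63.7 and 54.8 CPM in input, 47.1 and 44.5 in IgG and 79.5 and 87.7 in CPEB1 IP. For Bms1 the log2 fold change was 0.81 ± 0.16 over IgG (edgeR adjusted p = 0.000715) and 0.53 ± 0.16 over input (adjusted p = 0.0236), the second lost without either CPEB1 IP library, under DESeq2 and under the FPKM totals (up to 0.300).

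Utp14b was the exception in this group and the 1 member called lower in CPEB1 IP than in input. It is a retrogene copy of the X-linked Utp14a, known for its role in the male germ line, and lies within Acsl3, with which it shares 3.18% of its exon bases. Its level was 39.2 and 42.1 CPM in input, 14.9 and 20.8 in IgG and 14.3 and 21.5 in CPEB1 IP. Both precipitates thus lay below input, by log2 fold changes of -1.11 ± 0.23 for CPEB1 IP (edgeR adjusted p = 0.00281) and -1.18 ± 0.30 for IgG (adjusted p = 0.0016). The precipitates overlapped with each other.

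The plot of fold changes by role shows how the members of one complex spread.

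**Figure D3:**
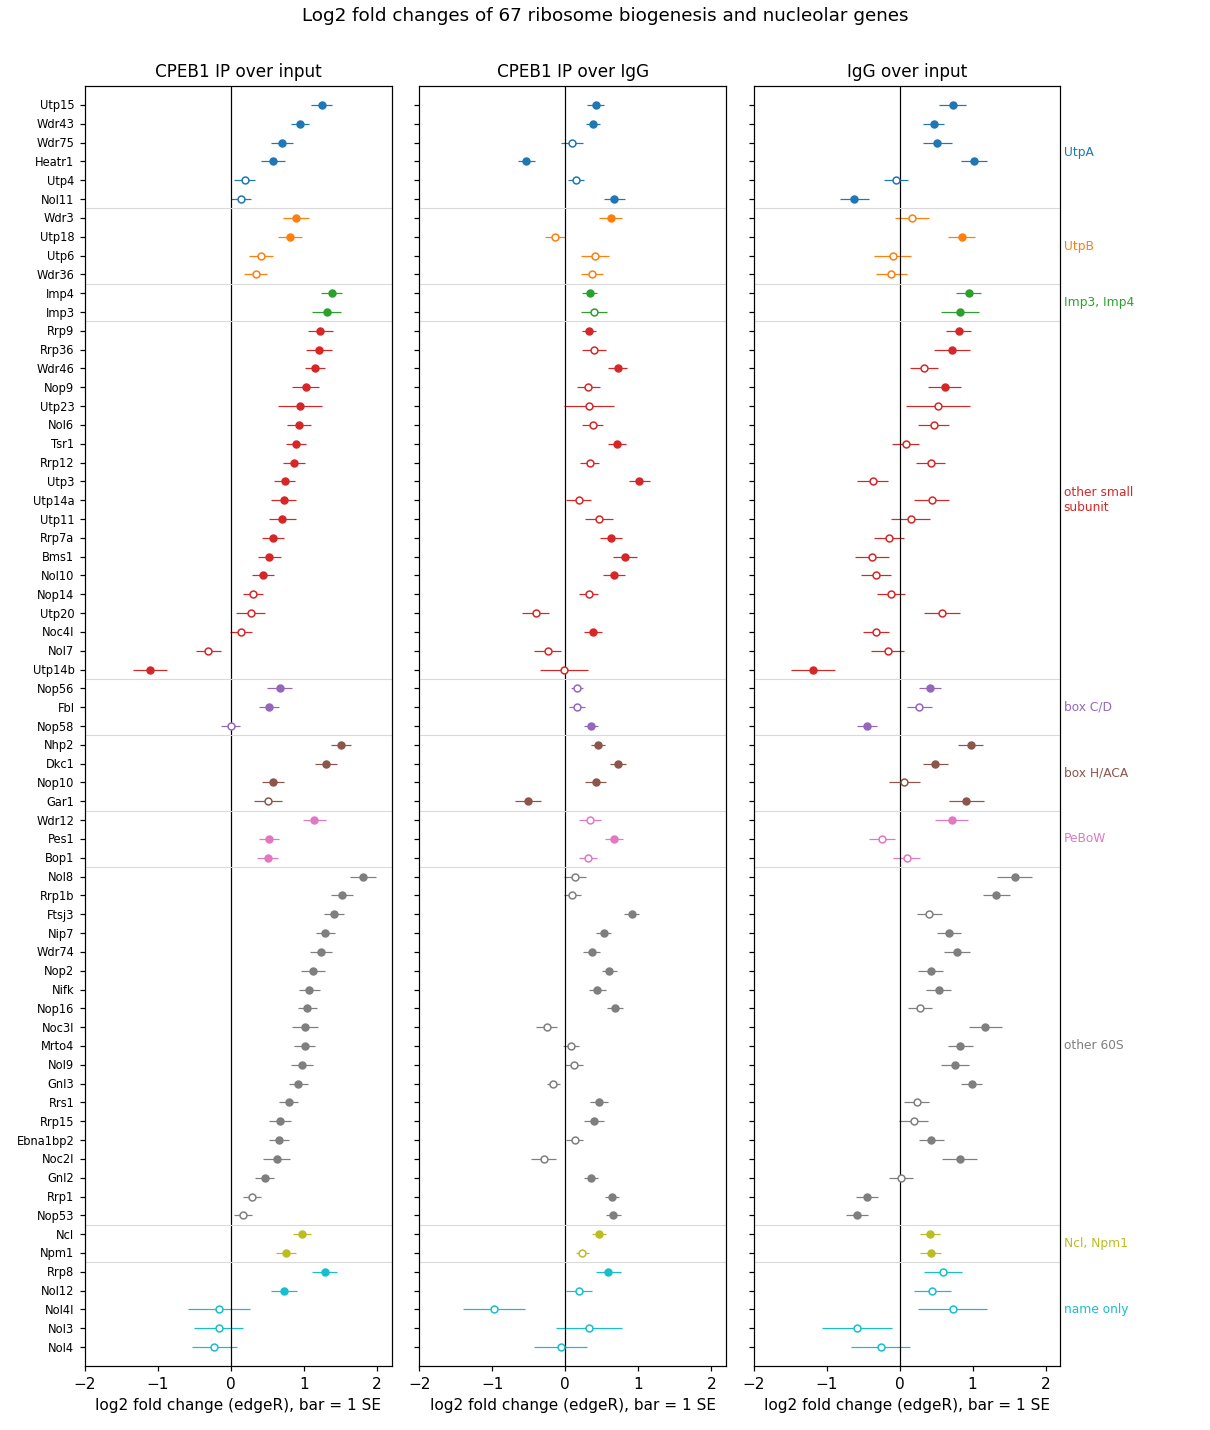
Log2 fold change (horizontal axis, edgeR) of each of the 67 members, grouped by role, for CPEB1 IP over input, CPEB1 IP over IgG and IgG over input. Points are estimates, bars are 1 SE, and filled points passed an adjusted p of 0.05. Filled points lie mainly right of 0 over input (51 higher, 1 lower), while Heatr1 and Gar1 are the filled points left of 0 over IgG, and the sign of Heatr1 and Gar1 over IgG and of 13 named genes in IgG over input flips when libraries are scaled to the FPKM totals.

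The box H/ACA core, which includes the pseudouridine synthase dyskerin (Dkc1), gave calls in both directions. Against IgG, 3 of its 4 genes were higher and 1 lower. Dkc1 was at 104 and 139 CPM in input, 158 and 183 in IgG and 279.5 and 308 in CPEB1 IP. Its log2 fold change over IgG was 0.73 ± 0.11 (edgeR adjusted p = 6.21e-05) and over input 1.30 ± 0.15 (adjusted p = 4.24e-05), and both calls were kept under every alternative setting. Nhp2 (chr11:51619735-51623714), a structural protein of the same particle with none of the motifs, was at 109 and 107 CPM in input, 214 and 212 in IgG and 293 and 314 in CPEB1 IP. Its libraries agreed closely within each group, with log2 fold changes of 0.45 ± 0.10 over IgG (edgeR adjusted p = 0.00195) and 1.51 ± 0.13 over input (adjusted p = 5.77e-06).

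Nop10 and Gar1 complete that particle. Nop10 was at 57.4 and 67.2 CPM in input, 66.5 and 63.8 in IgG and 88.9 and 92.6 in CPEB1 IP, with 0.42 ± 0.15 over IgG (edgeR adjusted p = 0.0329), a call lost without IgG replicate 2 or either CPEB1 IP library and without composition scaling (up to 0.241). Gar1, the subunit that joins last, was at 31.4 and 35.3 CPM in input, 65.0 and 60.9 in IgG and 51.6 and 42.2 in CPEB1 IP. CPEB1 IP lay between the other groups, giving -0.51 ± 0.18 against IgG (edgeR adjusted p = 0.0307) and 0.50 ± 0.19 against input (adjusted p = 0.0589), the second passing without input replicate 2 (adjusted p = 0.0158). The lower call against IgG was lost when any 1 of the 4 libraries was left out, with adjusted p up to 0.749 over the alternatives, and its sign turned under the FPKM totals (0.30).

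The box C/D core gave 1 call over IgG under TMM scaling. Fibrillarin (Fbl), the methyltransferase of the particle, was at 141 and 126 CPM in input, 163 and 161 in IgG and 182 and 195 in CPEB1 IP. Over IgG it did not pass (0.16 ± 0.11, edgeR adjusted p = 0.283), nor did Nop56 (0.16 ± 0.09, adjusted p = 0.174), whereas both passed over input, with 0.52 ± 0.14 and 0.66 ± 0.17 (adjusted p = 0.0113 and 0.00822). Fbl and Nop56 did pass over IgG under DESeq2, under the FPKM totals and without the filter, with log2 fold changes up to 0.97 in each. The call of Fbl over input was lost without either CPEB1 IP library and under the FPKM totals (adjusted p up to 0.220 over the alternatives). Nop58, the partner of Nop56, was at 611 and 752 CPM in input, 477 and 521 in IgG and 674 and 661 in CPEB1 IP. CPEB1 IP sat within the range of input for Nop58, and the call over IgG (0.35 ± 0.09, edgeR adjusted p = 0.00535) came with IgG below input (-0.45 ± 0.14, adjusted p = 0.00865), the latter lost without either IgG library (up to 0.238).

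The PeBoW genes Pes1, Bop1 and Wdr12, whose products act together in processing the 60S precursor, were all higher in CPEB1 IP than in input, although the calls of Pes1 and Bop1 were lost without either CPEB1 IP library and under the FPKM totals (edgeR adjusted p up to 0.230 and 0.228 over the alternatives), and that of Bop1 also under DESeq2. Pes1 was at 118 and 119 CPM in input, 100.1 and 101 in IgG and 161 and 172 in CPEB1 IP, and was the only one of these called over IgG (0.67 ± 0.12, edgeR adjusted p = 0.000313). Bop1 and Wdr12 had log2 fold changes over IgG of 0.31 ± 0.12 and 0.33 ± 0.15 (adjusted p = 0.0616 and 0.0943), and both passed under DESeq2, under the FPKM totals and without the filter. Leaving out IgG replicate 1 also brought Bop1 past the threshold, and leaving out IgG replicate 2 brought Wdr12 past it. Counted in the longest annotated 3′ UTR, Wdr12 has the most canonical CPE motifs of any member, 23 in 8379 bases. Over input, Wdr12 was higher by 1.14 ± 0.16 (edgeR adjusted p = 0.000162).

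Of the 19 other 60S factors, 17 (89.5%) were higher over input and 11 (57.9%) over IgG. In either, 0 were lower (edgeR, and 0 also at an unadjusted p under 0.05 and by DESeq2). Of all genes tested, 16.3% were higher over input and 14.7% over IgG. Some smaller role lists had larger shares, such as 75% of the 4 box H/ACA genes over IgG. Ftsj3, a methyltransferase that acts on the 60S precursor, was at 132 and 116 CPM in input, 167 and 163 in IgG and 311 and 336 in CPEB1 IP. Its log2 fold change was 0.91 ± 0.10 over IgG (edgeR adjusted p = 3.5e-06) and 1.41 ± 0.14 over input (adjusted p = 1.23e-05), while IgG over input just missed the threshold (0.41 ± 0.17, adjusted p = 0.0505) and passed under 5 of the alternatives, among them leaving out input replicate 1 (adjusted p = 0.00829).

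Nol8 and Rrp1b showed the opposite layout, with large differences from input that IgG shared. Nol8 (chr13:49653078-49679016), with none of the motifs, was at 25.4 and 23.2 CPM in input, 76.2 and 69.5 in IgG and 83.2 and 83.9 in CPEB1 IP. Its log2 fold change over input was the largest of the members in CPEB1 IP (1.81 ± 0.18, edgeR adjusted p = 1.07e-05) and in IgG (1.58 ± 0.24, adjusted p = 1.54e-06), while IP over IgG was 0.13 ± 0.15 (adjusted p = 0.522), which passed under the FPKM totals and without the filter. Rrp1b had 67.9 and 55.4 CPM in input, 162 and 148 in IgG and 176 and 172 in CPEB1 IP. For Rrp1b the log2 fold changes were 1.52 ± 0.15 over input (edgeR adjusted p = 1.52e-05) and 0.10 ± 0.11 over IgG (adjusted p = 0.543), the second passing under DESeq2, under the FPKM totals and without the filter. The difference of Rrp1b between IgG and input missed the threshold under the FPKM totals (edgeR adjusted p = 0.0540).

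Noc3l, of the 60S export pathway, and the GTPase Gnl3 (nucleostemin), known from stem cells, also had their highest CPM in IgG, an order of the precipitates that did not pass the test and that turned under the FPKM totals, under DESeq2 and without the filter on low counts. Noc3l was at 40.2 and 33.1 CPM in input, 83.7 and 82.5 in IgG and 77.1 and 69.7 in CPEB1 IP, with -0.25 ± 0.15 between the precipitates (edgeR adjusted p = 0.195). Gnl3 was at 317 and 276 CPM in input, 576 and 605 in IgG and 553 and 549.7 in CPEB1 IP. Over input it was higher by 0.92 ± 0.13 in CPEB1 IP (edgeR adjusted p = 0.00019) and by 0.99 ± 0.14 in IgG (adjusted p = 6.3e-07, lost under the FPKM totals at 0.55), with -0.16 ± 0.09 between the precipitates (adjusted p = 0.171). Nop53 resembled Nol11, at 307 and 291 CPM in input, 193 and 207 in IgG and 314 and 344 in CPEB1 IP. Its difference over IgG (0.66 ± 0.10, edgeR adjusted p = 8.92e-05) came with IgG below input (-0.58 ± 0.15, adjusted p = 0.00224, lost without either IgG library at up to 0.114) and CPEB1 IP near input (0.16 ± 0.13, adjusted p = 0.349).

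Nucleolin (Ncl) and nucleophosmin (Npm1), abundant chaperones of the nucleolus, were both higher in both precipitates than in input under TMM scaling, but in IgG over input both calls were lost without either IgG library, under DESeq2 and without the filter on low counts (adjusted p up to 0.442 and 0.466), and both signs turned under the FPKM totals (-0.47 and -0.46). Ncl was at 654 and 765 CPM in input, 874 and 1024 in IgG and 1397 and 1333 in CPEB1 IP. Its groups did not overlap, with log2 fold changes of 0.97 ± 0.13 over input (edgeR adjusted p = 9.62e-05) and 0.46 ± 0.10 over IgG (adjusted p = 0.00105). Npm1, at 349 and 457 CPM in input, 522 and 561 in IgG and 694 and 641 in CPEB1 IP, missed the threshold over IgG (0.23 ± 0.09, adjusted p = 0.0555), but passed under DESeq2, under each of the other 3 library scalings, without the filter and without CPEB1 IP replicate 2. The plot of CPM by library shows these layouts side by side.

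**Figure D4:**
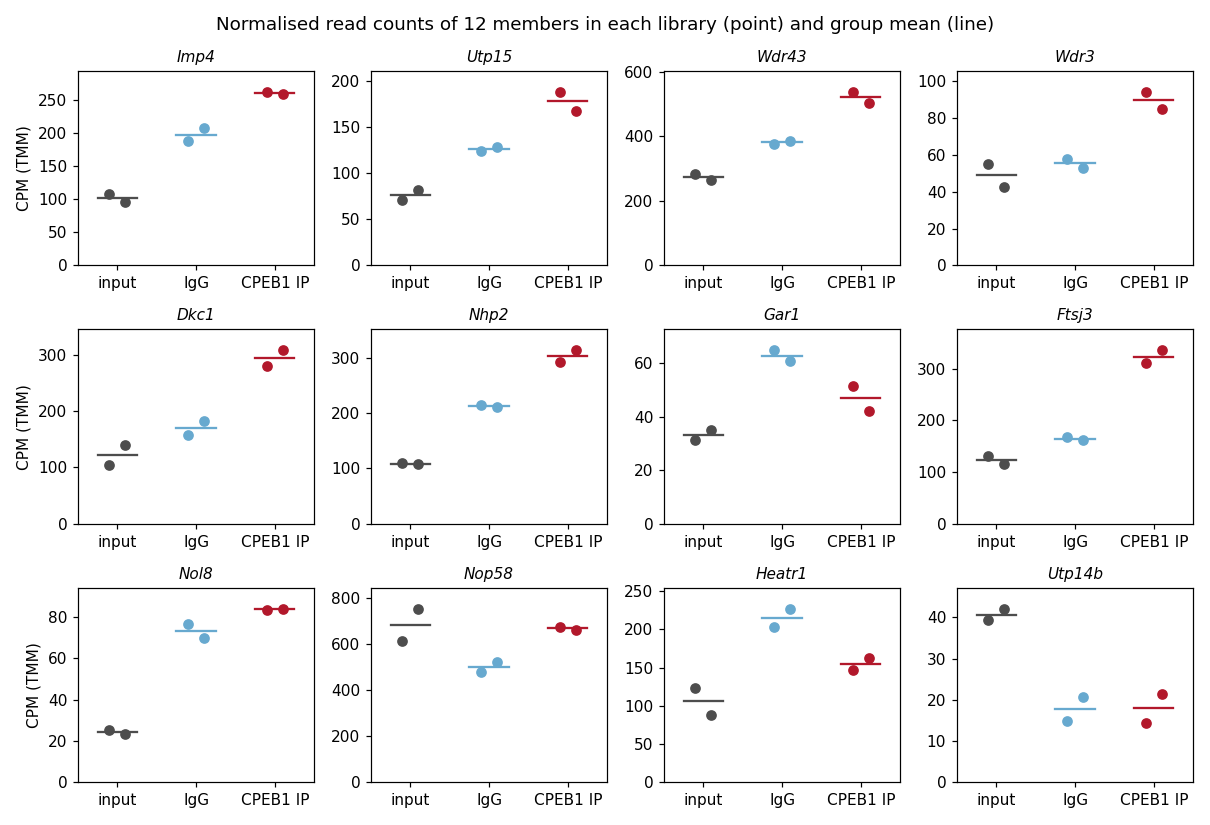
Normalised read count (CPM with TMM scaling over 6 libraries, vertical axis from 0) of 12 members in the 2 input, 2 IgG and 2 CPEB1 IP libraries, with points for libraries and lines for group means. Ftsj3 and Dkc1 are highest in CPEB1 IP, Nol8 is similarly high in both precipitates, Heatr1 and Gar1 are highest in IgG, and Utp14b is lowest in both precipitates.

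Levels per length in input differed widely among the members. The median of the mean input FPKM was 18.6 for the 67 members and 4.87 for all genes tested between CPEB1 IP and input. The highest were Npm1 at 114 ± 27.6 (SD, n = 2), Nop56 at 89.6 ± 19.7 and Nhp2 at 70.8 ± 3.03 FPKM. Npm1 and Nop56, and Nop56 and Nhp2, differed by less than the larger of the pair's SDs, whereas Nhp2 lay above the next member, Nop16 (63.1 ± 0.667), by more than that. The lowest was Nol4l, at 0.572 FPKM. Within complexes the levels were unequal: in box H/ACA they ran from 14.6 FPKM for Gar1 to 70.8 for Nhp2, and in PeBoW from 2.51 FPKM for Wdr12 to 29.4 for Pes1. These are levels per kilobase of annotated exon, and the long annotated exons of Wdr12 (11955 bases) enter its value.

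**Figure D5:**
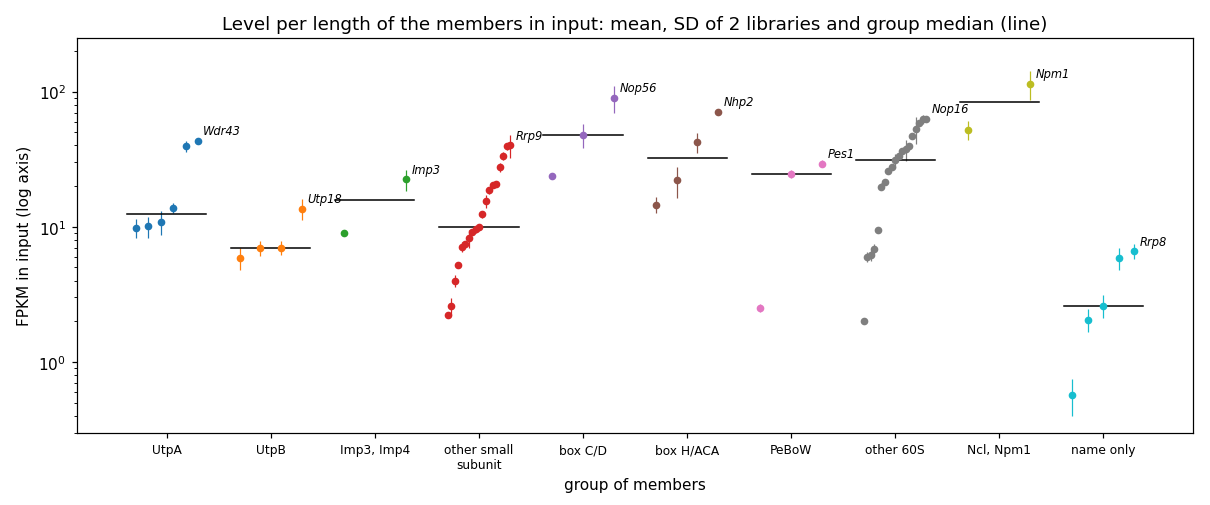
Input FPKM (log axis) of each of the 67 members by role, as the mean of 2 libraries with SD bars, and the median of each role as a line. Role medians lay between 2.61 FPKM for the genes without a role in the lists (name only) and 83.1 FPKM for Ncl and Npm1. Single members ranged from 0.572 to 114 FPKM.

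The study calls a transcript CPEB1-associated when the FPKM ratio of IP to IgG exceeds 2 in both experiments and the count test passes. With 1 added to each FPKM and edgeR as the test, 28 of the 67 members met these criteria, beside 12.1% of all 12124 genes tested. These shares are not matched for level, and the added 1 pulls ratios at low FPKM towards 1. At a mean input FPKM of at least 5, 28 of 59 members met the criteria. The share of all genes at that level was not computed. The 28 members included Utp15, Wdr3, Wdr43, Imp4, Dkc1, Nhp2, Nop10, Nop58, Pes1, Ncl, Utp3, Ftsj3, Bms1, Nol11 and Nop53. Imp3, Nop14 and Rrp36 had both ratios above 2 without passing the edgeR test. The study, which used DESeq2, names Imp3 among the transcripts bound by CPEB1, and Imp3 passed over IgG under DESeq2 here too. The highest ratios of those named were 3.13 and 3.61 in the 2 experiments for Utp3, and 2.88 and 3.40 for Ftsj3.

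These ratios depend on the FPKM totals. The median ratio was 2.01 and 2.16 for the members and 1.45 and 1.52 for all genes tested, so that the typical gene was already above 1. When FPKM was recomputed with TMM library sizes, 0 members and 56 of all genes passed the criteria. The count test was not what removed them, since 0 members had both ratios above 2 on that scale while 31 passed edgeR as higher in CPEB1 IP. DESeq2 in place of edgeR with the deposited FPKM gave 31 members and 1554 of all genes, and a pseudocount of 5 in place of 1 gave 16 members and 673 of all genes, beside 1464 of all genes for the 28 members above.

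CPE motifs were present in a smaller share of members than of all genes tested, a difference that was not tested. At least 1 of the 9 motifs was present in an annotated 3′ UTR of 44 of the 67 members (65.7%), beside 74.4% of the 10886 tested genes with a 3′ UTR. Canonical motifs were present in 40 members (59.7%), beside 66.9%. The longest annotated 3′ UTRs of members were shorter, with a median of 834 bases against 1285. The letters alone do not show a bound site.

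Fold changes were also set out by the presence of a motif. The median log2 fold change over IgG was 0.36 in the 44 members with a motif and 0.35 in the 23 without, and over input it was 0.72 and 0.86. Of those with a motif 19 met the criteria for association (43.2%), and of those without 9 did (39.1%). With canonical motifs alone the order turned, at 40% of members with and 44.4% without, and over all genes the shares were 11.9% with any of the 9 motifs and 17.1% without. None of these differences was tested. Members without a motif included Imp3, Nhp2, Utp3, Bms1, Fbl, Bop1, Gnl3 and Nol8. As a description across the 67 members, the fold change over IgG was compared with other properties by Spearman's rho. With the number of motifs in the longest annotated 3′ UTR it was -0.15 (-0.16 over 10886 genes). With exon length it was -0.24 (-0.28 over 12124 genes), and with input FPKM it was 0.34 (0.63 over 12124 genes). These points share the same libraries, and longer UTRs offer more places for a match.

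Ribosome biogenesis genes outside the name rule were counted in the same way. Of 63 such genes on a fixed list (exosome subunits, RIO kinases, export factors and others), 39 were higher and 0 lower in CPEB1 IP than input (edgeR, and 0 also at an unadjusted p under 0.05 and by DESeq2), 28 were higher and 4 lower than IgG, and 21 were higher and 2 lower in IgG than input. Their median log2 fold changes were 0.63, 0.34 and 0.32, and 27 met the criteria for association. The shares higher were 61.9%, 44.4% and 33.3%, beside 16.3%, 14.7% and 21.4% of all genes tested. The shares lower were 0%, 6.35% and 3.17%, beside 16.7%, 18.7% and 19.4%. For association the share was 42.9%, beside 12.1%. None of these shares was matched for level.

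Some reads on members cannot be assigned with certainty. Exons of 9 members share at least 10% of their bases with another gene, led by Nol3 (48.2%), Tsr1 (32.3%, with Srr) and Nop9 (29.9%, with Cideb), and without those 9 members 28 of 58 were higher in CPEB1 IP than IgG and 44 of 58 were higher than input. Introns or exons of 8 members, Nop58 among them, hold 22 annotated snoRNA genes, which had 11 to 26 counts in all per library, too few to compare. The pseudogenes Utp14b-ps1, Wdr46-ps, Mrto4-ps1 and Mrto4-ps2 had at most 39 counts in a library.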

How the data were processed

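RIP-seq libraries were made with SMART-Seq2 from freshly isolated SCs of C57BL/6 mice. The authors mapped reads to mm10 and counted them on genes with featureCounts, and the counts are deposited for each library without normalization. The submitters' processing notes list HISAT2, StringTie and featureCounts. The authors' deposited FPKM values use the count, the deposited exon length and a library total. The total is not given, and the value inferred from these quantities was larger than the reads on genes. The annotation release, strand setting and handling of multiply mapped reads are not given in the sources used here.

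Counts were tested with edgeR 4.0.16 (R 4.3.3), 2 groups at a time with 2 libraries each, after filterByExpr, with TMM library sizes, the quasi-likelihood test and Benjamini-Hochberg adjustment over all genes tested. All 67 members passed the filter in each comparison. SE is the log2 fold change divided by the square root of F. CPM for single libraries used TMM over all 6 libraries, which shifts the members' log2 ratio by a median of 0.06 for IP over IgG and -0.02 for IP over input relative to the fits. Depth is given with the results, and the lowest member count in a library was 7.

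Alternatives were DESeq2 1.42.0, other library scalings, no filter, a replicate block, 1 fit over all libraries, and leaving out each library. The members and gene lists were chosen with earlier results of these data known. Members were named if the study names them, if they belong to the snoRNP cores or PeBoW, as Ncl, Npm1 and Gnl3, as the 3 highest in input FPKM, or as the 3 largest positive and negative fold changes among those called in a comparison. Nop14, Rrp36 and the genes named for shared exons or for lacking a role were chosen after their values were seen. CPE motifs were searched in GENCODE M21 transcripts. The presence of a motif was taken over all annotated 3′ UTRs of a gene. Positions, numbers of motifs and UTR lengths were taken from the longest annotated 3′ UTR.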

Additional observations from a re-analysis of the deposited data

How the results depend on the processing

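Members called higher in CPEB1 IP than in IgG numbered 31 with edgeR and TMM, 49 with DESeq2, 52 without the filter on low counts and 63 with library sizes set to the FPKM totals, and those called lower fell from 2 to 0 in these 3 settings and to 1 in a fit of all 6 libraries. For IgG over input, higher calls went from 29 to 9 with DESeq2, 10 without the filter and 1 with the FPKM totals, which also raised lower calls from 5 to 36. Without the filter and with DESeq2 the genes fitted rose from 12124 to 42045 for IP over IgG and from 12980 to 40052 for IgG over input. The median over all genes fitted was then -0.90 and -1.07 for IP over IgG and 1.84 and 2.13 for IgG over input. The members' median moved the other way, from 0.35 to 0.75 and 0.64 for IP over IgG. For IgG over input it moved from 0.43 to 0.16 and 0.29. Leaving out 1 library at a time gave 23 to 29 higher and 1 lower for IP over IgG, 36 to 55 higher and 1 lower for IP over input, and 16 to 31 higher and 1 to 6 lower for IgG over input, where IgG replicates 1 and 2 gave the lowest counts (17 and 16). Members meeting the association criteria were 28, but 16 with a pseudocount of 5, 0 with TMM-scaled FPKM, and 23 to 29 with 1 library left out. The shares of all genes moved too. Without the filter they were 8.36% higher and 5.56% lower for IP over IgG and 10.3% and 7.66% for IgG over input. With 1 library left out they were 8.55% to 13% higher and 5.49% to 12.8% lower for IP over IgG, 7.37% to 20.1% and 8.12% to 17.8% for IP over input, and 9.84% to 17.4% and 12.4% to 19.3% for IgG over input. The causes were not tested. The alternatives not named here kept the counts of calls within 1.5 times.

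Libraries with the same replicate number did not deviate together (correlations of deviations from group means 0.03, -0.01 and -0.01 over 14276 genes). With the replicate number as a block the calls were 31 higher and 2 lower for IP over IgG, 51 and 1 for IP over input, and 31 and 5 for IgG over input, with 28 members meeting the association criteria.

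Of the values of single named genes, 40 changed sign. With the FPKM totals, IgG over input became negative for Utp15 (-0.15), Wdr3 (-0.70), Wdr43 (-0.41), Imp3 (-0.055), Fbl (-0.60), Nop56 (-0.45), Dkc1 (-0.40), Nop10 (-0.82), Bop1 (-0.77), Wdr12 (-0.17), Ncl (-0.47), Npm1 (-0.46) and Ftsj3 (-0.47), IP over input for Nol11 (-0.029), and IP over IgG became positive for Gar1 (0.30), Gnl3 (0.64), Heatr1 (0.28), Utp14b (0.79) and Noc3l (0.55). The rest passed in neither fit. Without the filter, IgG over input was -0.094 for Wdr3, -0.21 for Nop10 and -0.17 for Bop1, and IP over IgG 0.23 for Gnl3, 0.39 for Utp14b and 0.15 for Noc3l. With DESeq2, these were -0.077 for Nop10 and -0.038 for Bop1, and 0.12 for Gnl3, 0.25 for Utp14b and 0.032 for Noc3l. With 1 library left out, IgG over input ranged from -0.022 to 0.40 for Wdr3, from -0.023 to 0.16 for Nop10 and from -0.037 to 0.25 for Bop1, and IP over IgG from -0.36 to 0.30 for Utp14b, which had 0.047 in the fit of all 6 libraries. Nop58 over input, at -0.00 in the main comparison, was 0.016 with relative log expression factors, 0.000778 with the replicate block, and -0.14 to 0.16 with 1 library left out.

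The IgG libraries held the fewest reads on genes.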
